A study of Homo sapiens with 24 samples.

Results

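The genes described here are replacement histone variants and a pair of histone chaperones, namely the linker histone gene H1-10, the H2A variant genes H2AX, H2AZ1, H2AZ2 and MACROH2A1, the H3.3 genes H3-3A and H3-3B, and the chaperone genes ASF1A and ASF1B. A probe was taken as a member when its annotated current or former gene symbol was one of these, whatever its signal. The rule found 9 genes with 14 probes, of 20046 genes with 30112 probes that carry a single symbol and of 47322 probes in all. All 9 genes had a probe detected on 24 of 24 arrays, and 13 of the 14 probes passed the detection filter. The exception, MACROH2A1 probe ILMN_2275437, was detected on 0 arrays.

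The RNA came from 4 established lines of triple-negative breast cancer, a class of tumour named for low oestrogen receptor, progesterone receptor and HER2. The lines BT549, HCC38, MDA-MB-157 and MDA-MB-231 were each exposed to 2 µM cisplatin, a platinum compound that crosslinks DNA, for 0, 24 or 72 h. Each of the 12 line-by-time groups had 2 independent replicates, giving 24 bead arrays on 2 slides with 1 array of every group on each slide. The 0 h cultures are the common baseline of the 24 h and 72 h comparisons, and cultures kept for the same hours without drug were not analysed here, so exposure to cisplatin and time in culture cannot be told apart.

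In chromatin, the core histones made during S phase come from clustered genes without introns, whereas replacement variants come from single genes outside those clusters and can be put into nucleosomes at any stage of the cell cycle. H2AX is phosphorylated beside DNA double-strand breaks, H2A.Z marks promoters and is placed by dedicated exchange complexes, macroH2A carries a large extra domain and is abundant in silent chromatin, and H3.3 is laid down at active genes and at telomeres. Histones are escorted by chaperones: ASF1 binds an H3-H4 dimer and hands it to CAF-1 during replication or to HIRA outside it, ASF1A being the paralogue linked to HIRA and ASF1B the one linked to proliferation.

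Levels are log2 of background-corrected, quantile-normalised intensities with an offset of 16, so that changes of dim genes are understated, and the level of one probe is not set against that of another. A gene was called when its Benjamini-Hochberg adjusted p over 14807 tested genes was under 0.05 in limma. Between 18303 and 21976 probes were detected per array, and the 2 arrays of a group correlated at 0.9766 to 0.9913. The pair farthest apart was MDA-MB-231 at 0 h, with 765 genes over 2-fold apart against 70 to 527 in the other groups. For ASF1A, ASF1B, H1-10, H2AX, H2AZ2 and H3-3B the 72 h change in that line is also given without either of its 0 h arrays. Replicate 2 of MDA-MB-231 at 0 h was the lowest of its line's 6 arrays for 9 of 9 members. The share of all genes for which this held was not examined, so it is not read as a trait of the members. The ESR1 probe was detected on 0 arrays and that of PGR on 2, while ERBB2 was detected on all 24 at log2 levels of 7.85 to 9.97. Of the mesenchymal markers, VIM was detected on all 24 arrays, ZEB1 on 10 and FN1 on 9. Of the epithelial and basal markers, EPCAM was detected on 22 arrays, CDH1 on 21, KRT18 on 20, KRT5 on 5 and KRT14 on 1. The mean CDH1 level was 11.2 in HCC38 and 5.16 to 5.57 in the other lines. The blood and endothelial markers PTPRC, CD3E and CDH5 were detected on 0 arrays and PECAM1 on 6.

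Averaged over the 4 lines, ASF1A and H1-10 fell and ASF1B rose at 72 h of cisplatin. This was 3 of 9 members called, 1 higher and 2 lower, where 1.21% of all tested genes were called at 72 h (0.507% higher and 0.702% lower). In RNA from whole cultures, a change in the make-up of the cells and a change in RNA per cell cannot be told apart. The median log2 change of the 9 members was -0.02, beside -0.0011 for all genes. At 24 h 0 of 9 were called by limma, where 0.0135% of all genes were called, and 2 members, ASF1B and H2AX, had an unadjusted p under 0.05, as 8.75% of all genes did. H3-3B, at -0.34 at 72 h (unadjusted p = 0.00948 in limma), was not called. H2AZ1, H2AZ2 and, on its brightest probe alone, MACROH2A1 had average log2 changes between -0.02 and 0.05 at both times, with 95% intervals that all lay between -0.28 and 0.24.

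**Figure D1:**
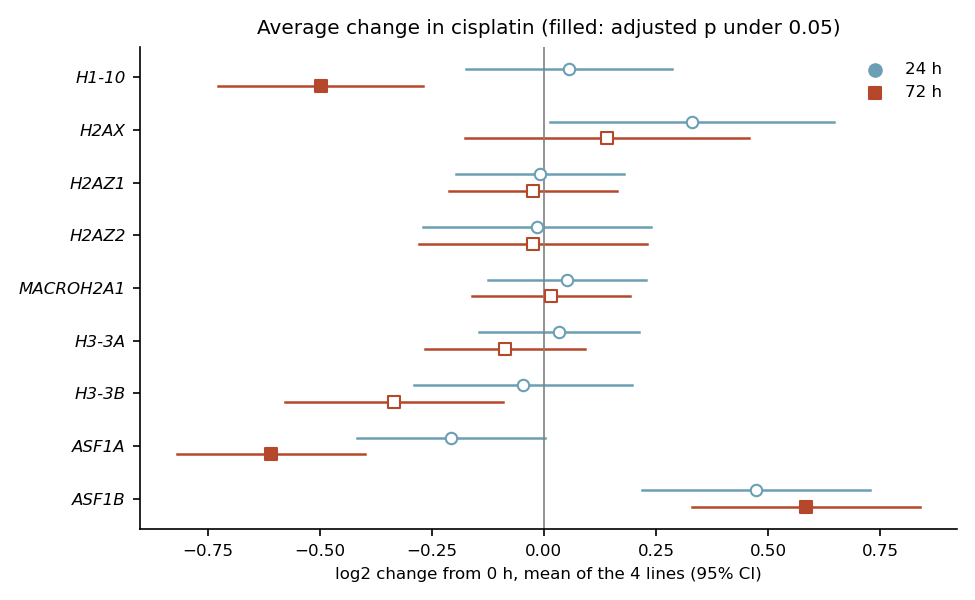
Average log2 change from 0 h over the 4 lines for each of the 9 genes, at 24 h (circles) and 72 h (squares), with 95% confidence intervals from the limma fit as lines and filled symbols for an adjusted p under 0.05. At 72 h ASF1A (-0.61) and H1-10 (-0.50) lie left of 0 and ASF1B (0.58) lies right of it, and no symbol at 24 h is filled.

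Both ASF1 genes have a single probe, and they are described first because the largest average changes at 72 h among the members were theirs. ASF1A (chr6:118894152-118909171, plus strand) read 8.14 and 8.28 in BT549 at 0 h, 7.49 and 7.56 at 24 h, and 7.20 and 6.85 at 72 h. Both later pairs lay below the 0 h pair, without overlap. In HCC38 its level was 7.76 and 8.04 at 0 h, 7.46 and 7.92 at 24 h, and 7.13 and 6.82 at 72 h, so that only the 72 h arrays lay wholly below the start. MDA-MB-157 had the lowest starting level, at 6.97 and 7.08, with 6.85 and 7.04 at 24 h and 6.79 and 6.70 at 72 h. Its 72 h arrays were also below its 0 h arrays, by a smaller distance. In MDA-MB-231 the values were 8.02 and 7.57 at 0 h, 8.05 and 7.84 at 24 h, and 7.73 and 7.75 at 72 h, and the 72 h arrays lay inside the 0 h range.

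The average ASF1A change was -0.61 (SE 0.10, 0.66 of the starting level, limma adjusted p = 0.00722) at 72 h and -0.21 (SE 0.10, adjusted p = 0.57) at 24 h. By line the 72 h change was -1.18 (SE 0.20, adjusted p = 0.00623) in BT549, -0.93 (SE 0.20, adjusted p = 0.0817) in HCC38, -0.28 (SE 0.20, adjusted p = 0.925) in MDA-MB-157 and -0.05 (SE 0.20, adjusted p = 0.979) in MDA-MB-231. It was called in BT549, where 1.01% of all genes were called at 72 h and 0.473% were called lower. The HCC38 change was called in 4 of 38 alternatives and stayed uncalled in 34. The 4 were an offset of 50 (-0.77, adjusted p = 0.0429), no background correction (-0.61, adjusted p = 0.0472), a replicate block within each line (-0.93, adjusted p = 0.042) and the fit without replicate 1 of HCC38 at 0 h (-1.07). Whether the 72 h change differed between lines was tested with a moderated F test, which gave an unadjusted p of 0.00217 and an adjusted p of 0.235, where 0.0405% of all genes were called. The value was below 0 in 4 of 4 lines, as for 9.53% of all genes, but in MDA-MB-231 it changed sign in 3 of 38 alternatives. Among these, with arrays scaled to their medians it was 0.07 relative to the median of all genes. Without replicate 1 of MDA-MB-231 at 0 h it turned to 0.17, and without replicate 2 it was -0.28. The average call was lost without the line BT549 (-0.42, adjusted p = 0.172), without HCC38 (-0.50, adjusted p = 0.0757) and with median scaling (adjusted p = 0.365). Within slide 1 the average was -0.64 and within slide 2 -0.58. Without replicate 2 of BT549 at 0 h the BT549 change was -1.12 (adjusted p = 0.11), and without replicate 2 at 72 h it was -1.01 (adjusted p = 0.0971).

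ASF1B (chr19:14119512-14136589, minus strand) ran the other way. It read 9.53 and 9.58 in BT549 at 0 h, 9.95 and 10.03 at 24 h, and 9.81 and 10.10 at 72 h. In HCC38 it read 9.60 and 9.24 at 0 h, 9.77 and 9.89 at 24 h, and 10.01 and 9.82 at 72 h. In both lines all later arrays lay above both 0 h arrays. MDA-MB-157, the line with the highest ASF1B level, had 10.06 and 9.82 at 0 h, 10.62 and 10.23 at 24 h, and 10.58 and 10.60 at 72 h. MDA-MB-231 had 9.59 and 8.63 at 0 h, 9.87 and 9.49 at 24 h, and 10.004 and 9.80 at 72 h. Its 2 arrays at 0 h differed by more than its 72 h arrays differed from the higher of them, and its 24 h arrays overlapped the 0 h range.

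The average ASF1B change was 0.58 (SE 0.12, 1.499-fold, limma adjusted p = 0.0253) at 72 h and 0.47 (SE 0.12, 1.39-fold, adjusted p = 0.217) at 24 h. Single lines gave 0.40 in BT549, 0.50 in HCC38, 0.65 in MDA-MB-157 and 0.79 in MDA-MB-231 at 72 h (SE 0.24 each, adjusted p 0.343 to 0.536), so no single line was called. The MDA-MB-231 value was 1.27 (adjusted p = 0.00458) without replicate 1 at 0 h and 0.31 (adjusted p = 1) without replicate 2. Values above 0 in 4 of 4 lines at 72 h were found for 9.1% of all genes. The BT549 value at 72 h changed sign in 2 of 38 alternatives. Among these, with arrays scaled to their medians it was -0.35, where the median of all genes was -0.47. Within slide 1 the average was 0.49 and within slide 2 it was 0.68. Leaving out replicate 2 of MDA-MB-231 at 0 h gave 0.46 (adjusted p = 0.0385) at 72 h and 0.35 (adjusted p = 0.339) at 24 h, and leaving out replicate 1 gave 0.70 (adjusted p = 0.00171) and 0.59 (adjusted p = 0.00889). The average call at 72 h was lost without the line BT549 (0.65, adjusted p = 0.102), without HCC38 (0.61, adjusted p = 0.11), without MDA-MB-157 (0.56, adjusted p = 0.114), on the authors' log2 values (0.46, adjusted p = 0.182) and with median scaling (adjusted p = 0.732). It was also lost, with changes of 0.54 to 0.61 and adjusted p of 0.0538 to 0.0805, without any 1 of 10 arrays: BT549 at 0 h replicates 1 and 2 and at 72 h replicate 2, HCC38 at 0 h replicate 2 and at 72 h replicates 1 and 2, MDA-MB-157 at 0 h and at 72 h replicate 2, and MDA-MB-231 at 72 h replicates 1 and 2.

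H1-10 (chr3:129314771-129316286, minus strand) encodes H1.10, formerly H1X, a linker histone that binds the DNA between nucleosomes. In BT549 it read 9.03 and 8.65 at 0 h, 9.0 and 8.56 at 24 h, and 7.92 and 7.65 at 72 h. In HCC38 it read 8.53 and 8.25 at 0 h, 8.38 and 8.28 at 24 h, and 8.02 and 7.80 at 72 h. In both lines the 24 h arrays overlapped the start and the 72 h arrays lay below it. MDA-MB-157 went from 7.91 and 7.75 at 0 h through 7.99 and 7.82 at 24 h to 7.61 and 7.27 at 72 h, again with no overlap between 0 h and 72 h. MDA-MB-231 had 8.46 and 7.91 at 0 h, 8.60 and 8.31 at 24 h, and 8.06 and 8.18 at 72 h, the last lying inside the 0 h range.

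The average H1-10 change was 0.06 (SE 0.11, limma adjusted p = 0.922) at 24 h and -0.50 (SE 0.11, 0.71 of the starting level, adjusted p = 0.032) at 72 h. From 24 h to 72 h the change was -0.55 (SE 0.11, adjusted p = 0.0486), 1 of 9 members called where 0.149% of all genes were called, and this call was lost on leaving out any 1 of 20 of the 24 arrays. In BT549 H1-10 was at 0.48 of its starting level at 72 h, a log2 change of -1.06 (SE 0.22, adjusted p = 0.022). The changes were -0.48 in HCC38, -0.39 in MDA-MB-157 and -0.07 in MDA-MB-231 (SE 0.22 each, adjusted p 0.457 to 0.974), and the F test of a difference between lines gave an adjusted p of 0.479. The MDA-MB-231 value changed sign in 3 of 38 alternatives. Among these, it was 0.05 relative to the median of all genes with arrays scaled to their medians, and 0.21 without replicate 1 at 0 h. Without replicate 2 at 0 h it was -0.35. The average call was lost without the line BT549 (-0.31, adjusted p = 0.309), without HCC38 (-0.51, adjusted p = 0.134), without MDA-MB-157 (-0.53, adjusted p = 0.0987), on the authors' log2 values (-0.45, adjusted p = 0.108) and with median scaling (adjusted p = 0.547). Within slide 1 the average was -0.50 and within slide 2 -0.49.

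The H1-10 call at 72 h was lost, with changes of -0.45 to -0.53 and adjusted p of 0.0504 to 0.11, without any 1 of 10 arrays. These were BT549 at 0 h replicate 1 and at 72 h replicate 2, HCC38 at 0 h replicate 1 and at 72 h replicates 1 and 2, MDA-MB-157 at 0 h replicates 1 and 2 and at 72 h replicate 2, and MDA-MB-231 at 72 h replicates 1 and 2. The BT549 call was lost without replicate 1 at 0 h (-0.87, adjusted p = 0.231), replicate 2 at 0 h (-1.25, adjusted p = 0.0941) or replicate 2 at 72 h (-0.92, adjusted p = 0.226).

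**Figure D2:**
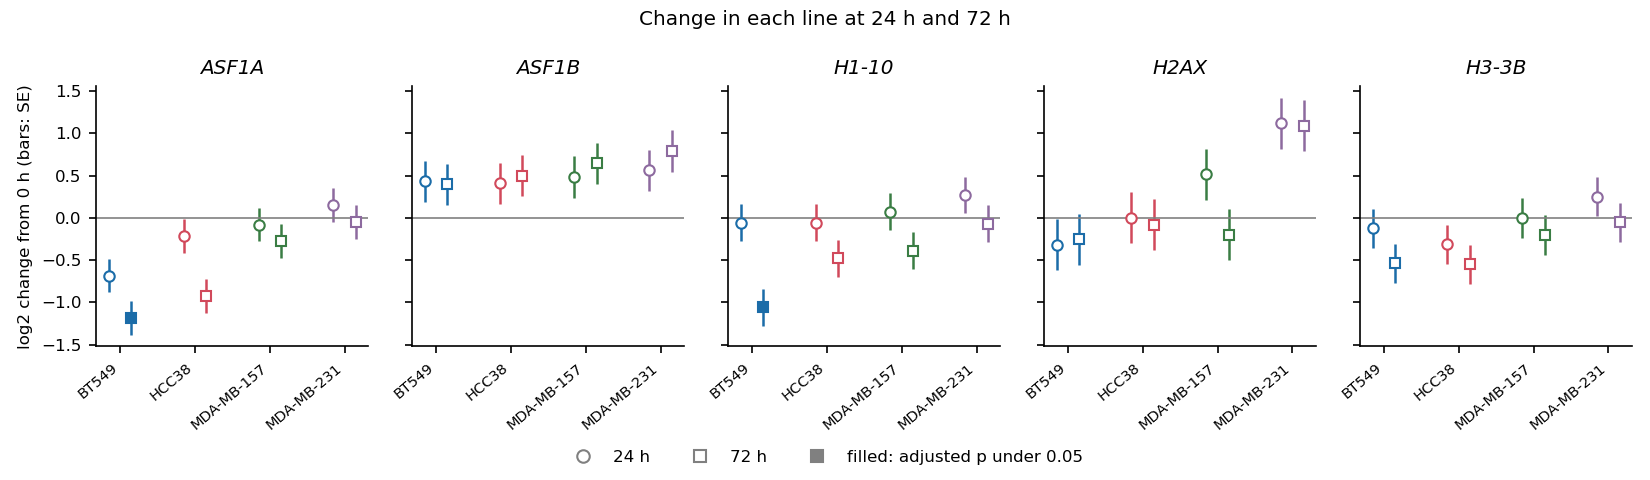
Log2 change from 0 h in each of the 4 lines for 5 of the genes, at 24 h (circles) and 72 h (squares), with the standard error as bars and filled symbols for an adjusted p under 0.05. The filled symbols are ASF1A (-1.18) and H1-10 (-1.06) in BT549 at 72 h, and ASF1B lies above 0 in every line at both times.

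The starts of the 3 genes called at 72 h are shown so that the regions before them can be compared. Each run holds the 250 bases before the RefSeq start on GRCh38.p14, read 5′ to 3′ on the gene's own strand, and capitals mark matches on either strand to TTTGAA (the cell cycle homology element), CCAAT (the NF-Y motif), GGGCGG (the GC box), TATAA (the TATA box) and TTTNNCGC (an E2F-type core).
ASF1A (chr6:118893902-118894151, plus strand): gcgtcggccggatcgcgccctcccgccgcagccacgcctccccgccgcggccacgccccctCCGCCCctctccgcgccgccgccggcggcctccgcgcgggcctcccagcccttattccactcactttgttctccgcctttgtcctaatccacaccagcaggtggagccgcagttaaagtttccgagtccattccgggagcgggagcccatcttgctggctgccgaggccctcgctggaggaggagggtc
ASF1B (chr19:14136590-14136839, minus strand): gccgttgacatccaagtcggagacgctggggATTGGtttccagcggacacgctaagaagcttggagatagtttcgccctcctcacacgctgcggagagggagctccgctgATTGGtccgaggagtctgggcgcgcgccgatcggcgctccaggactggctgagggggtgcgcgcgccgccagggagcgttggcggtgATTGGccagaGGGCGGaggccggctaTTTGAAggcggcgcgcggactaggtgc
H1-10 (chr3:129316287-129316536, minus strand): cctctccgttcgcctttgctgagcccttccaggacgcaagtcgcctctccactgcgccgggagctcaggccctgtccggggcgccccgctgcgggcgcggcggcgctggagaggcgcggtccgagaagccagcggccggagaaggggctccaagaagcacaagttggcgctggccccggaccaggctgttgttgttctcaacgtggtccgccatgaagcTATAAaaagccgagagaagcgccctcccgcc
The ASF1B window held TTTGAA starting 27 bases before the start, GGGCGG 43 bases before it and CCAAT on the other strand at 53, 140 and 219 bases before it. TTTGAA was in 13.3%, GGGCGG in 42.6% and CCAAT in 32% of 35116 promoter windows of this length. The ASF1A window held GGGCGG on the other strand, 189 bases before the start, and none of the other 4 motifs. The H1-10 window held TATAA 31 bases before the start, which 18.9% of windows held, and none of the others. TTTNNCGC was in 0 of these 3 windows and in 5.92% of all. None of the matches in these 3 windows overlapped another, and a match is a description of letters, not of a bound site. Members that were not called shared such matches. The H2AX window held TTTGAA on the other strand, 164 bases before the start, and 4 CCAAT matches. CCAAT was also in a window of each of H2AZ1, H2AZ2, H3-3A, H3-3B and MACROH2A1.

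Among the H2A variants, H2AX (chr11:119093874-119095465) had the largest positive changes of any member in a single line, and they rest on the pair of arrays that stood apart. In MDA-MB-231 H2AX read 9.14 and 7.87 at 0 h, 9.84 and 9.41 at 24 h, and 9.46 and 9.73 at 72 h. All later arrays were above both 0 h arrays, which themselves lay farther apart than any other pair of this gene. The log2 change was 1.12 (SE 0.30, limma adjusted p = 0.394) at 24 h and 1.09 (SE 0.30, adjusted p = 0.333) at 72 h. Without replicate 2 at 0 h the values were 0.48 and 0.46 (adjusted p = 1 for each), and without replicate 1 they were 1.75 (adjusted p = 0.00183) and 1.73 (adjusted p = 0.00202). Which of those 2 arrays is nearer to the line's usual H2AX level was not tested.

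H2AX values had no common direction in the other lines. MDA-MB-157 had 8.27 and 7.88 at 0 h, 8.73 and 8.45 at 24 h, and 8.01 and 7.74 at 72 h, above the start at 24 h and overlapping it at 72 h. BT549 had 8.35 and 8.41 at 0 h, 7.82 and 8.31 at 24 h, and 8.33 and 7.93 at 72 h, each later pair below the start. HCC38, where H2AX was highest at 0 h (9.51 and 9.18), had 9.23 and 9.45 at 24 h and 9.16 and 9.37 at 72 h, all within or close to its 0 h range. The average change was 0.33 (SE 0.15, adjusted p = 0.544) at 24 h and 0.14 (SE 0.15, adjusted p = 0.73) at 72 h, and the F test between lines gave unadjusted p of 0.0178 and 0.016 with adjusted p of 1 and 0.414. Without replicate 1 of MDA-MB-231 at 0 h the averages were 0.49 and 0.30, and without replicate 2 they were 0.17 and -0.02. Within slide 1 the 24 h average was 0.04 and within slide 2 it was 0.61.

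H2AZ1 (chr4:99948088-99950275) and H2AZ2 (chr7:44826889-44848126) encode near-identical H2A.Z proteins, and their probes varied by very different amounts. The 12 group means of H2AZ1 spanned 0.59 on the log2 scale, a span smaller than that of most genes, since 12.2% of all tested genes had a smaller one and the median over genes was 1.30. The highest were the 2 arrays of BT549 at 0 h, at 13.98 and 13.94, and the lowest was replicate 2 of MDA-MB-231 at 0 h, at 13.09. The H2AZ1 signal was near the top of the arrays, with raw intensities of 7641 to 23539.4 where the brightest probe of an array read 21407.9 to 31863, and how far this compresses differences was not tested. Its average change was -0.01 (95% interval -0.20 to 0.18) at 24 h and -0.02 (-0.21 to 0.16) at 72 h.

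On its single probe, H2AZ2 set HCC38 apart, and whether another probe would do so was not tested. There it read 5.36 and 5.60 at 0 h, 5.68 and 5.40 at 24 h, and 5.28 and 5.31 at 72 h, all below the lowest of the 18 arrays of the other lines, 6.47. At 0 h its level in BT549 was 1.57 above that in HCC38 on the log2 scale (SE 0.24, limma adjusted p = 3.02e-05), and HCC38 minus MDA-MB-157 was -1.81 (adjusted p = 4.62e-06) and HCC38 minus MDA-MB-231 -1.63 (adjusted p = 2.12e-05). BT549 read 6.85 and 7.24 at 0 h, 6.60 and 6.84 at 24 h, and 6.47 and 6.66 at 72 h, a 72 h change of -0.48 (SE 0.24, adjusted p = 0.437). MDA-MB-157 read 7.22 and 7.37, then 7.19 and 7.31, then 7.44 and 7.63, a 72 h change of 0.24 (SE 0.24, adjusted p = 0.994). The average changes were -0.01 and -0.02.

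MACROH2A1 (chr5:135334381-135399887) has 4 probes, and those that were detected disagreed on the order of the lines. On the brightest, ILMN_2373495, HCC38 was highest (13.23 to 13.37 over 6 arrays) and MDA-MB-157 lowest (12.39 to 12.73). Probe ILMN_1746171 gave the same highest and lowest line, with 10.57 to 11.15 in HCC38 and 9.98 to 10.37 in MDA-MB-157. Probe ILMN_1674034 put HCC38 lowest, at 7.14 to 8.03, where MDA-MB-157 had 8.43 to 9.17, BT549 9.44 to 10.18 and MDA-MB-231 9.97 to 10.14. At 0 h the difference between HCC38 and MDA-MB-231 was 0.33 (SE 0.17, adjusted p over probes = 0.149) on the brightest probe and -2.41 (SE 0.27, adjusted p over probes = 5.69e-07) on ILMN_1674034. The gene is known to make alternatively spliced forms, macroH2A1.1 and macroH2A1.2, and which form each probe reads was not examined. None of the 3 detected probes was called with time, with average log2 changes of 0.05 to 0.21 at 24 h and 0.02 to 0.20 at 72 h (adjusted p over probes 0.531 to 0.956).

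**Figure D3:**
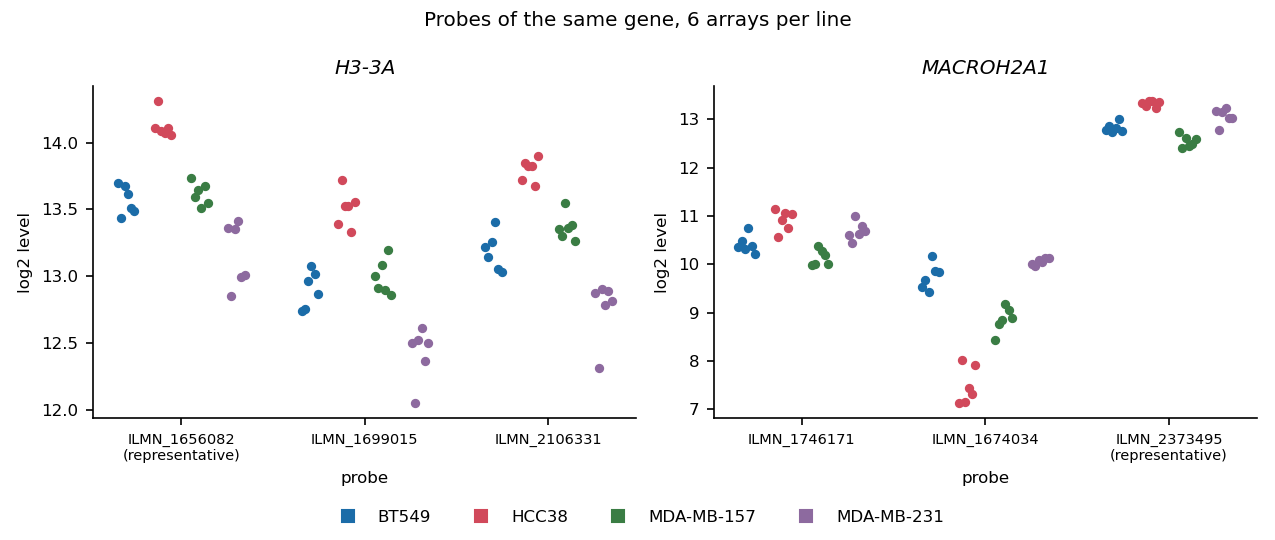
Log2 level on each array for the 3 probes of H3-3A (left) and the 3 detected probes of MACROH2A1 (right), with the 6 arrays of each line side by side in order of time and coloured by line. The H3-3A probes put HCC38 highest and MDA-MB-231 lowest, whereas HCC38 is highest on 2 of the MACROH2A1 probes and lowest on ILMN_1674034 (7.14 to 8.03).

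H3-3A (chr1:226061831-226072019) and H3-3B (chr17:75776434-75779779) encode the same H3.3 protein from different transcripts. The 3 probes of H3-3A gave one order of the lines, with means over 6 arrays on ILMN_1656082 of 14.12 in HCC38, 13.62 in MDA-MB-157, 13.57 in BT549 and 13.17 in MDA-MB-231. Its neighbours MDA-MB-157 and BT549 were not told apart at 0 h (BT549 minus MDA-MB-157 -0.10, SE 0.17, limma adjusted p = 0.708). HCC38 was higher at 0 h by 1.10 than MDA-MB-231 (SE 0.17, adjusted p = 3.18e-05), by 0.64 than BT549 and by 0.55 than MDA-MB-157. The average changes on this probe were 0.03 at 24 h and -0.09 at 72 h (SE 0.09), with 0.08 and 0.03 at 72 h on the others. Raw H3-3A intensities of 6555.1 to 23225 were also close to those of the brightest probes, and H3-3A has processed pseudogenes, whose share of the signal was not tested.

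H3-3B was the most variable member across the groups, with group means spanning 2.88, more than 89.8% of genes. MDA-MB-157 read 10.93 and 11.03 at 0 h, 11.09 and 10.86 at 24 h, and 10.87 and 10.68 at 72 h, while the 18 arrays of the other lines lay between 7.86 and 8.91. The MDA-MB-157 level at 0 h was higher by 2.75 than that of MDA-MB-231 (SE 0.23, 6.74-fold, limma adjusted p = 1.5e-08), and the differences from BT549 and HCC38, given as those lines minus MDA-MB-157, were -2.10 (adjusted p = 5.34e-07) and -2.33 (adjusted p = 1.01e-07). These 2 H3.3 genes thus had their highest level in different lines, H3-3A in HCC38 on its 3 probes and H3-3B in MDA-MB-157 on its single probe. Whether another H3-3B probe would give that order of lines was not tested.

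With time H3-3B read 8.84 and 8.91 at 0 h, 8.66 and 8.84 at 24 h and 8.33 and 8.34 at 72 h in BT549. In HCC38 it read 8.60 and 8.70, then 8.38 and 8.29, then 8.25 and 7.94. In these lines and in MDA-MB-157 the 72 h arrays were below both 0 h arrays, whereas in MDA-MB-231 (8.59 and 7.86 at 0 h, 8.39 and 7.96 at 72 h) they overlapped. The average 72 h change was -0.34 (SE 0.12, 0.79 of the starting level, limma adjusted p = 0.153) and was not called, though it was without the line MDA-MB-231 (-0.43, adjusted p = 0.0352). The line values were -0.54 in BT549, -0.55 in HCC38, -0.20 in MDA-MB-157 and -0.05 in MDA-MB-231 (SE 0.23 each). The last was 0.31 without replicate 1 of MDA-MB-231 at 0 h and -0.42 without replicate 2.

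**Figure D4:**
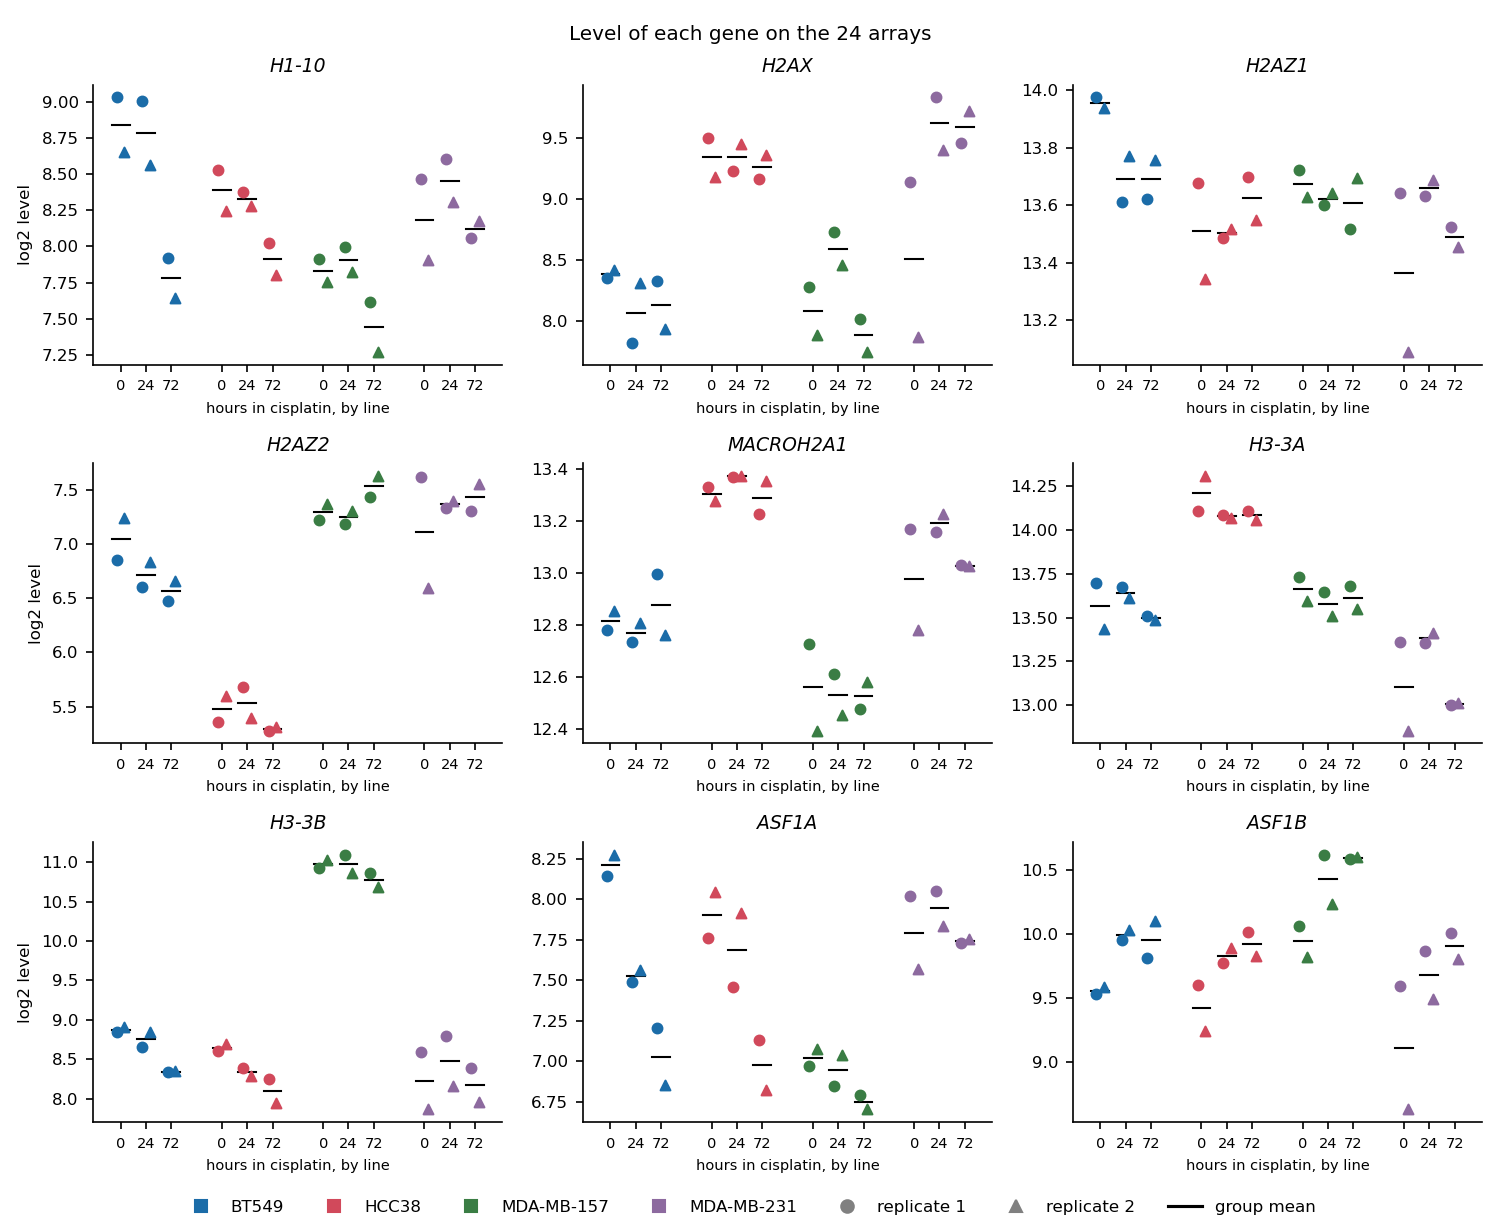
Log2 level of each of the 9 genes on all 24 arrays, with 0, 24 and 72 h side by side within each line, circles for replicate 1, triangles for replicate 2 and a bar for the group mean. H3-3B stands at 10.68 or more in MDA-MB-157, H2AZ2 at 5.68 or less in HCC38, and replicate 2 of MDA-MB-231 at 0 h is the lowest array of its line for 9 of 9 genes. The share of all genes for which this held was not examined.

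At 0 h the lines differed in 9 of 9 members by the moderated F test, where 66.8% of all genes were called, so most genes share this. The adjusted p was smallest for H3-3B (1.72e-08) and largest for ASF1B (0.0356) and H2AZ1 (0.0352). ASF1A was lowest in MDA-MB-157, with BT549 1.19 above it (SE 0.20, adjusted p = 8.07e-05), and ASF1B was highest there, at 0.83 above MDA-MB-231 (SE 0.24, adjusted p = 0.0105). The size of that ASF1B gap depends on the MDA-MB-231 pair that stood apart, at 9.59 and 8.63, where MDA-MB-157 read 10.06 and 9.82. H1-10 was highest in BT549, at 1.01 above MDA-MB-157 (SE 0.22, adjusted p = 0.000962).

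The arrays of 72 h and 0 h did not overlap in 7 of 9 members in BT549 (1 higher, 6 lower), where this held for 42% of all genes. The count was 6 of 9 in HCC38 (1 higher, 5 lower, 41.4% of all genes), 5 of 9 in MDA-MB-157 (2 higher, 3 lower, 41.2%) and 2 of 9 in MDA-MB-231 (both higher, 35.8%). ASF1B was among the higher ones in 4 of 4 lines. The 72 h arrays lay wholly above the 0 h arrays for 19.5% of all genes in BT549 and 19.2% in HCC38. This share was 22.2% in MDA-MB-157 and 18.2% in MDA-MB-231. The share of genes for which it held in all 4 lines was not examined. At 24 h the counts were 5 of 9 in BT549 (36% of all genes), 4 of 9 in HCC38 (32.6%), 2 of 9 in MDA-MB-157 (37.3%) and 1 of 9 in MDA-MB-231 (30.5%). Of 72 member values within single lines, 2 were called, both in BT549 at 72 h. Of all genes, 0.027% were called in BT549 at 24 h and 0% in the other lines, and at 72 h 0.081% were called in HCC38, 0.081% in MDA-MB-157 and 0.00675% in MDA-MB-231. The F test of a difference between lines called 0 of 9 members at 24 h, where 0% of all genes were called. At an unadjusted p under 0.05 it named 1 of 9 members at 24 h (4.25% of all genes) and, with 0 of 9 called, 3 of 9 at 72 h (9.53% of all genes).

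Other genes of histone supply and repair were taken from 4 lists, with 12 replication genes set beside them, of which 62 of 64 had a tested probe (NPM1 and BAZ1B did not). None of the 62 was called by limma at 24 h or at 72 h, and 12 and 9 had an unadjusted p under 0.05, where 8.75% and 15.5% of all genes did. Of the 21 H3-H4 chaperones and their partners, 16 had average 72 h changes above 0, where 49.7% of all genes did. Their median was 0.10 beside -0.0011 for all genes. The highest were CHAF1A, the large subunit of CAF-1, at 0.34 (SE 0.13, adjusted p = 0.195) and MMS22L, which works with TONSL on nascent chromatin, at 0.32 (SE 0.13, adjusted p = 0.24). The lowest were TLK1, a kinase of ASF1, at -0.22 and RBBP4, the small CAF-1 subunit, at -0.12. HIRA, the partner of ASF1A for H3.3, was at 0.01, and DAXX, the other H3.3 chaperone, at 0.27 (adjusted p = 0.199); both were chosen for their roles after their values were seen.

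Of 18 tested H2A-H2B chaperones and H2A.Z exchange genes, 9 had 72 h changes above 0 (49.7% of all genes), with a median of -0.02. The ends of that range were RUVBL2, an ATPase of the exchange complexes, at 0.19, SUPT16H, a FACT subunit, at 0.18, ACTR6, a subunit of the SRCAP complex, at -0.27 and SET, a chaperone of the NAP family, at -0.23. The 4 other variant histones were CENPA, the centromeric H3, at 0.02, MACROH2A2 at -0.19, and H3-5 and H2AJ at -0.24 each. The 7 tested kinases and readers of H2AX had a median of -0.09, from ATM (-0.15) and RNF168 (-0.13) to PRKDC (0.05) and RNF8 (0.08). The 12 replication genes had a median of 0.20 at 24 h (-0.0051 for all genes), 11 of them above 0 (48.4% of all genes). At 72 h their median was 0.08, with 10 above 0 (49.7% of all genes). Their range at 72 h ran from MCM6 (-0.23) and GINS1 (-0.10) to CDC6 (0.41) and RRM2 (0.47). They are given beside ASF1B, and their part in its change was not tested. All these values are relative to the arrays' common distribution, and with median scaling the median of all genes stood at -0.09 at 24 h and -0.08 at 72 h.

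**Figure D5:**
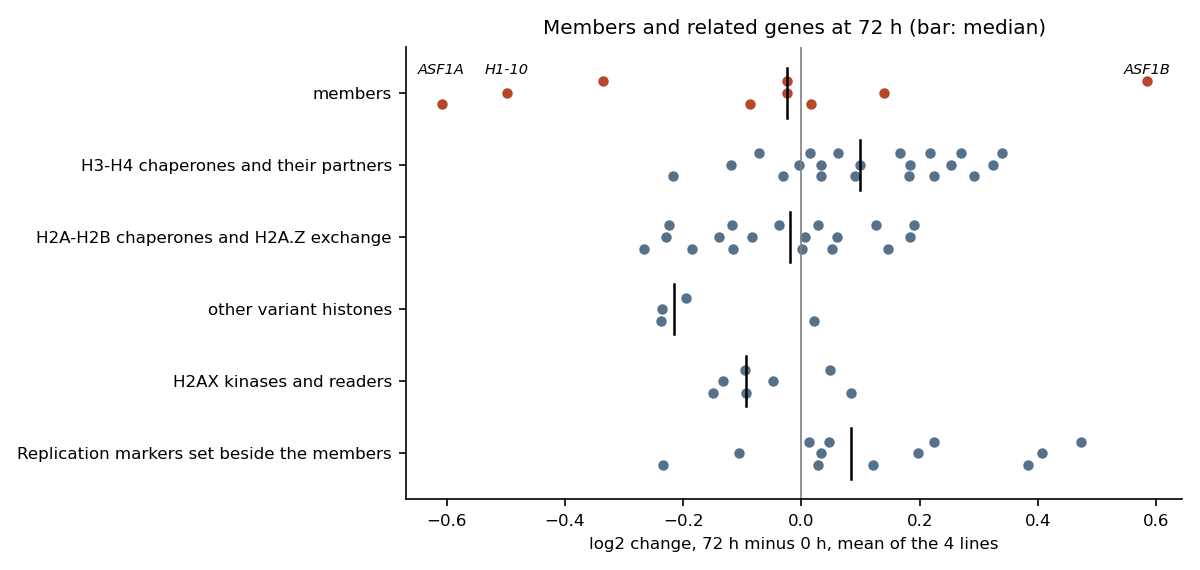
Average log2 change at 72 h over the 4 lines for the 9 members (top) and for the tested genes of the related lists, 1 point per gene, with a bar at the median of each list. ASF1A (-0.61), H1-10 (-0.50), H3-3B (-0.34, not called) and ASF1B (0.58) lie outside the range of the related genes, which runs from -0.27 to 0.47.

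After subtraction of each line's mean, the genes most like each member over the 24 arrays were found by Pearson correlation, given as a description since arrays share lines, times and slides. ASF1B was most like FEN1 (r = 0.89), the flap endonuclease of lagging-strand synthesis, and DDIAS (0.87). ASF1A was most like PEX2 (0.90) and HNRNPH3 (0.89), and H1-10 most like ALG9 (0.88) and ARHGDIA (0.85). For H2AX they were BCAP29 (0.87) and YWHAH (0.85), for H2AZ1 PRPS2 (0.85) and the mitotic kinase PLK1 (0.79), and for H2AZ2 ANXA8 (0.78, detected on 6 arrays) and SLC35G1 (0.78). For H3-3A they were TSHZ1 (0.72) and LINC00261 (0.71, detected on 4 arrays), for H3-3B SMIM7 (0.83) and PAXIP1 (0.82), and for MACROH2A1 MAEA (0.82) and TLCD4 (0.78). Among the members, ASF1A correlated with H3-3B at 0.74 and with H1-10 at 0.73, H1-10 with H3-3B at 0.73, and ASF1A with ASF1B at -0.34.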

How the data were processed

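Total RNA from the 24 cultures was labelled as biotin cRNA and hybridised to Illumina bead arrays, per the labels' protocols. The deposited table holds, per the file headers, a non-normalised intensity and a p-value of detection for every probe on every array. A second deposited table holds the authors' log2 values, whose normalisation is not given in the sources used here. Its identifiers did not follow its values (correlation by identifier -0.0068 to 0.0124), so 47319 probes were matched to it by value within 0.02, and it served only as an alternative. 0 columns of sample values were left out.

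Intensities were background-corrected by normexp with the spread of negative controls inferred from the detection p-values, given an offset of 16, quantile-normalised and log2-transformed (R 4.3.3, limma 3.58.1). A probe entered when 2 or more arrays detected it at p under 0.05, and the probe with the highest mean stood for a gene, leaving 14807 genes. limma's lmFit and eBayes fitted 1 mean per group (12 residual and 6.87 prior degrees of freedom), with Benjamini-Hochberg adjustment over all genes. The number of arrays limits the precision. Groups came from the sample labels. The fit was tested on simulated data.

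Members and lists were chosen with earlier results of these data known. An item of a list is not reported here. All members are named; of each list the 2 highest and 2 lowest at 72 h, as none was called; and for each member the 2 most correlated genes. Alternatives varied background correction, scaling, filter, probe choice, blocks, weights, lines and single arrays. Gene positions and promoter sequences are from RefSeq on GRCh38.p14, where all 9 members had an entry.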

Additional observations from a re-analysis of the deposited data

How the results depend on the processing

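Under 41 alternatives, 3755 of 3843 values kept their side of the threshold, 76 lost a call, 12 gained one and 0 called values changed sign. Most of the 99 member values were uncalled in the main fit, so the 3755 says little about the calls. All 76 losses fell on the few values called in the main fit, and the H1-10 call from 24 h to 72 h was lost in 29 of 41 alternatives. Among the 3755, 162 uncalled values changed sign (the largest of them 0.43 in size in the main fit). The 72 h change ranged over alternatives from -0.79 to -0.40 for ASF1A (adjusted p 0.00363 to 0.41, call lost in 5), from 0.43 to 0.70 for ASF1B (0.00171 to 0.732, lost in 17) and from -0.65 to -0.31 for H1-10 (0.00631 to 0.547, lost in 17). Members called at 72 h numbered 0 with median scaling, without BT549 and without HCC38, and 1 with the authors' values and without MDA-MB-157. The count fell for genes in general. Of all 14807 genes, 179 were called at 72 h in the main fit and 0 with median scaling. The number was 1 without BT549, 32 without HCC38, 51 with the authors' values and 38 without MDA-MB-157. The fits on slide 1 alone and on slide 2 alone were added after seeing the data, with 1 array a group. From 24 h to 72 h 0 members were called with median scaling, the authors' values, no filter, the slide as a block, and without BT549, HCC38 or MDA-MB-157. Within single lines 1 member value was called with median scaling, without HCC38 and without MDA-MB-157. At 0 h 4 of 9 members differed between lines without MDA-MB-157. Of the related genes 1 was called with an offset of 50, with no background correction and without MDA-MB-231. Leaving out 1 array, with a lone array assumed to vary like the other groups, gave 0 to 1 members called at 24 h, 1 to 3 at 72 h, 0 to 1 from 24 h to 72 h, 0 to 7 within lines, 7 to 9 between lines at 0 h, 0 to 1 and 0 to 2 for differences between lines in the change at 24 h and 72 h, and 0 to 4 related genes. Without MDA-MB-231 0 h replicate 1 the counts were 7 within lines, 1 at 24 h, 2 for differences between lines at 72 h and 4 related genes, and genes called at 24 h went from 2 to 130. The within-line count was 0 without replicate 2 of BT549 at 0 h or at 72 h. Replicate numbers were not taken as pairs, since deviations of same-numbered arrays within a line correlated at -0.0492 to 0.5006 and not all exceeded 0.1 (11 of 12 above 0, 7 above 0.1), although in BT549 they were 0.5006, 0.4202 and 0.378. With the replicate block 3 members were called at 72 h, and with a block within each line 4, H3-3B being added (adjusted p = 0.034), while the genes called at 72 h went from 179 to 264 and 504. The block within each line also called ASF1A in HCC38 (adjusted p = 0.042) and left 7 of 9 members differing between lines at 0 h. Where a count changed, the cause was not tested beyond the fewer arrays of some fits.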
